A study of Mus musculus with 20 samples.

Results

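The microRNAs (miRNAs) described here are the mature forms cut from a cluster of precursors in an intron of Clcn5 on the mouse X chromosome. Of 1481 mature miRNAs in the deposited tables, 9 were chosen by name: mmu-miR-362-5p, mmu-miR-362-3p, mmu-miR-188-5p, mmu-miR-500-3p, mmu-miR-501-5p, mmu-miR-501-3p, mmu-miR-532-5p, mmu-miR-532-3p and mmu-miR-660-5p, written without their species prefix from here on. The tables hold 8 of these, and miR-660-5p was not analysed here. The group was picked because miR-362-5p was higher in knockout than in wild-type neurons after oxygen-glucose deprivation in these same libraries, and the question was whether its cluster mates follow it. The values of that contrast are therefore given as a description, with no p for a member, and nothing is read from the count of calls in it.

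Small RNA was sequenced in primary cortical neurons taken at embryonic day 15 and cultured for 7 days. The genotype was wild type or knockout for the circular RNA ciRS-7 (Cdr1as), and the strain field of every library, wild type included, reads C57BL/6N-Cdr1asem1Nikr. Cultures were then treated for 12 h in fresh medium. Normoxic cultures had 25 mM added glucose and 0.2 mM added pyruvate at 37 °C and 5% CO2, and deprived cultures (OGD) had neither supplement and 1% O2 at the same temperature and CO2. There were 5 libraries for each of the 4 combinations of genotype and treatment, 20 in all. The submitters call these biological replicates without saying whether they came from separate embryos or litters, so p-values measure the spread between these libraries.

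A miRNA is transcribed as part of a longer RNA, cut from it as a hairpin, and trimmed to a short duplex with a 5p and a 3p arm. One arm, often the same one, is kept by an Argonaute protein and pairs with messenger RNAs mainly through its seed, bases 2 to 8 counted from the 5′ end. Precursors that lie together in an intron can be made from 1 transcript, and their mature levels can still differ through processing, arm choice and decay. Clcn5 encodes ClC-5, a chloride/proton exchanger of endosomes. ciRS-7 is abundant in brain and holds many sites for miR-7 and 1 for miR-671, and OGD is a model of ischaemia in culture.

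The precursors lie on the minus strand of chromosome X (GRCm38, GENCODE M21). In the direction of transcription they are Mir532 (chrX:7248402-7248497), Mir188 (chrX:7247989-7248056), Mir362 (chrX:7241982-7242046), Mir501 (chrX:7241243-7241351) and Mir500 (chrX:7237683-7237774). They span 10815 bases, with gaps of 345, 5942, 630 and 3468 bases between neighbours. All 5 fall in intron 3 of the transcript Clcn5-202 (chrX:7213011-7316658), and outside Clcn5-201, which the annotation marks as principal. No precursor overlaps an exon or UTR of Clcn5-202.

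**Figure D1:**
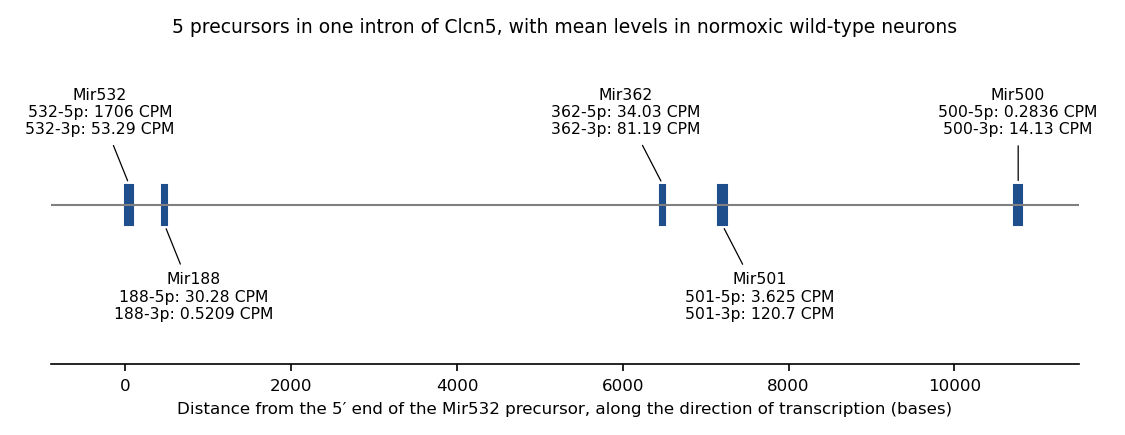
Map of the 5 precursors drawn to scale along the direction of transcription, with distance from the start of Mir532 in bases; the labels give the mean level of each mature form in normoxic wild-type libraries, in counts scaled to a common library size (CPM, n = 5). Mir532 and Mir188 form a close pair, as do Mir362 and Mir501, and miR-532-5p has by far the highest level at 1706 CPM.

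The mature sequences are shown because miR-500-3p and miR-501-3p, which share a seed, then differ in their levels, and to show how far the other members resemble each other. They are from RefSeq (GRCm38.p6), 5′ to 3′, with the seed in capitals, and 7 of the 8 measured members matched the table. miR-532-5p was not matched.
miR-362-5p: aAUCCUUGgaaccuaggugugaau
miR-501-5p: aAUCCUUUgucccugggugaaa
miR-362-3p: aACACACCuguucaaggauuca
miR-500-3p: aAUGCACCugggcaaggguuca
miR-501-3p: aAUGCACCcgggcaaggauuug
miR-188-5p: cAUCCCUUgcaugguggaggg
miR-532-3p: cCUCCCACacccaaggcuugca
miR-500-3p and miR-501-3p share their seed and are equal at 18 of 22 positions. With positions counted from 1 at the 5′ end and the base of miR-500-3p first, they differ by U9C, G18A, C21U and A22G. miR-362-5p and miR-501-5p differ within the seed by G8U and are equal at 16 of 22 positions. miR-362-3p and miR-500-3p are equal at 17 of 22 positions, with C3U and A4G in the seed. How reads that match more than 1 of these were assigned is not given in the sources used here. Any shift of reads within a pair by that step was not tested.

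The precursor Mir362 shows how the pair of arms sits in the hairpin, here with both mature arms in capitals.
Mir362: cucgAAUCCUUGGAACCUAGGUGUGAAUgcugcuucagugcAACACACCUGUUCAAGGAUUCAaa
The other mature forms of these hairpins were near the limit of detection. miR-188-3p had at most 11 reads in any library and miR-500-5p, which shares its seed with miR-362-5p, at most 5. On summed levels, miR-362-5p made up 99.1% to 99.6% of that seed's reads as group means.

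Library totals ran from 1160582 to 12477032 reads and were lower after OGD (1160582 to 4374002) than in normoxia (2492065 to 12477032). The first principal component held 83% of the variance of 423 abundant features. Wild-type normoxic replicate 5 stood apart on it, at -0.88 against -14.46 to -13.09 for the other libraries of its group and 7 to 15.05 for the OGD libraries, so the members' OGD changes are also given without it. The OGD label was checked with miR-210-3p, a miRNA induced by low oxygen, with a mean of 18.3 CPM in normoxic and 107.9 CPM in deprived wild-type libraries and of 26 and 110.2 CPM in the knockout ones. ciRS-7 is not among the measured RNAs, so the genotype labels were not checked here. All 4 neuronal markers were present (miR-9-5p, miR-128-3p, miR-124-3p and miR-137-3p, the last the lowest at 354 to 809.6 CPM). Of the markers of other cells, miR-21a-5p (astrocytes) was at 1524 to 3132 CPM and miR-126a-3p (endothelium) at 251.3 to 378.1 CPM. The blood and microglial markers miR-142a-3p, miR-223-3p and miR-451a stayed at or below 3.59 CPM. The neuronal markers moved in different directions with OGD: on the log2 scale miR-124-3p rose by 0.74 in wild type and 0.56 in knockout (limma adjusted p = 3.77e-05 and 0.000115), and miR-128-3p fell by 0.57 and 0.53 (limma adjusted p = 0.00265 and 0.0103). miR-137-3p changed by 0.31 (limma adjusted p = 0.0959) and 0.38 (limma adjusted p = 0.0128), and miR-9-5p was not called. With libraries centred on their median miR-124-3p (0.18 and 0.05) and miR-137-3p (-0.25 and -0.13) were not called, and miR-128-3p (-1.13 and -1.04) and miR-9-5p (-0.59 and -0.43) were called lower. miR-21a-5p changed by 0.26 in wild type (limma adjusted p = 0.137) and rose by 0.32 in knockout (limma adjusted p = 0.0101) on the log2 scale, and miR-126a-3p changed by -0.06 and -0.13 and was not called. With centring miR-21a-5p was at -0.30 and -0.19 and not called, and miR-126a-3p was called lower, at -0.62 and -0.64 (limma adjusted p = 0.000429 and 0.000462). The part of these marker changes in the members' values was not tested.

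After OGD, miR-500-3p and miR-362-3p were higher in both genotypes, and miR-532-5p, miR-501-3p, miR-501-5p and miR-188-5p passed the test in neither. miR-362-5p and miR-532-3p passed in knockout alone, which does not show a difference between genotypes: the log2 fold change of miR-532-3p was 0.35 in knockout and 0.38 in wild type, an OGD effect differing by -0.03 (SE 0.19). The tests were limma fits on log2(CPM + 0.5) over all features, with Benjamini-Hochberg adjustment and a threshold of 0.05. In wild type, 2 of 8 members were called higher and 0 lower, where 23.1% of 1478 features were called, 18.7% higher and 4.4% lower. In knockout, 4 of 8 were called higher and 0 lower, 1 of them miR-362-5p, whose deprived knockout libraries chose the group, which leaves 3 of the other 7, where 24.5% of 1479 features were called, 18.8% higher and 5.75% lower. The median log2 fold change of the 7 mates was 0.35 in wild type and 0.32 in knockout, beside 0.32 and 0.24 for all features and 0.22 and 0.20 for the 425 and 420 abundant features, those averaging 3 or more on the log2(CPM + 0.5) scale. Of these abundant features, 144 of 425 were called higher and 57 lower in wild type, and 155 of 420 higher and 70 lower in knockout. These shares are larger than those over all features. With all libraries thinned to the shallowest depth, miR-500-3p and miR-362-3p were still called in both genotypes and miR-362-5p in knockout, and miR-532-3p was not, with a larger knockout value (0.465, limma adjusted p = 0.11). Without wild-type normoxic replicate 5, the same 2 members were called in wild type, miR-362-3p and miR-500-3p, the latter at 1.28 (limma adjusted p = 7.85e-06). The values of those not called were 0.38 for miR-188-5p, 0.37 for miR-362-5p, 0.28 for miR-532-3p, 0.04 for miR-501-5p, -0.11 for miR-532-5p and -0.16 for miR-501-3p.

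These directions depend on how libraries are scaled. The authors' library factors, used throughout unless stated, differ from a centring of each library on its median feature by 0.56 (log2) for OGD in wild type and 0.51 in knockout. Under median centring, 1 member was called higher and 2 lower in wild type, and 2 higher and 2 lower in knockout, where 7.31% and 7.57% of all features were called higher and 17.9% and 21.9% lower. Without miR-362-5p the knockout count was 1 higher and 2 lower. The order of the members among themselves is the same under both scalings, since centring moves all of them by 1 amount.

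**Figure D2:**
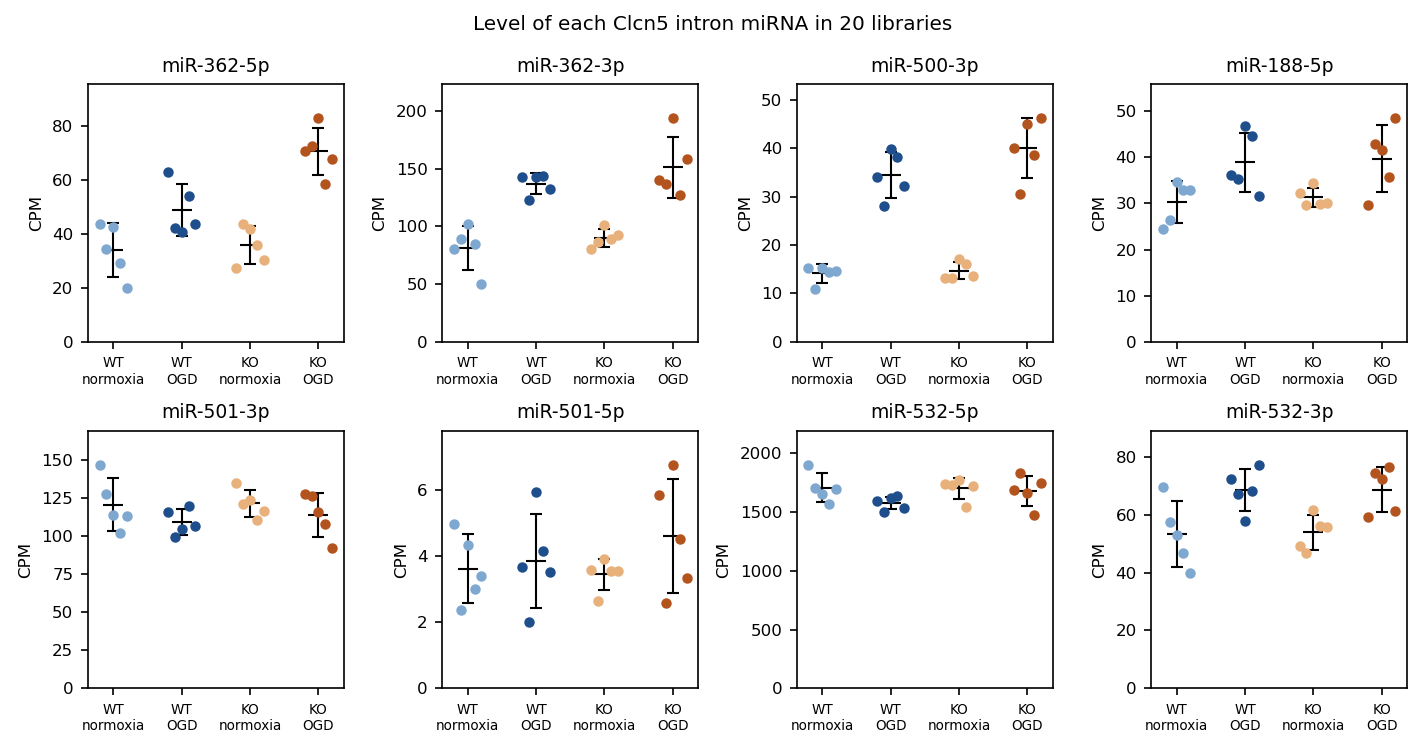
CPM of each of the 8 measured members in every library (points), with the group mean and SD (black bars), for wild-type (WT) and ciRS-7 knockout (KO) neurons, n = 5 per group and each axis from 0. OGD libraries of miR-500-3p and miR-362-3p lie above all normoxic ones, and those of miR-532-5p and miR-501-3p overlap them.

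miR-500-3p had the largest change of the 8. In normoxic wild-type neurons its 5 libraries were at 15.3, 10.9, 15.3, 14.4 and 14.7 CPM, and after OGD at 34.2, 28.1, 39.9, 38.2 and 32.1 CPM. In knockout neurons the values were 13.2, 13.3, 17.1, 16.2 and 13.7 CPM in normoxia and 40, 30.5, 45.1, 38.5 and 46.2 CPM after OGD. Every OGD library was above every normoxic one in both genotypes, as was so, in 1 direction or the other, for 16% of features in wild type and 19.1% in knockout, and for 35.3% and 44.8% of the abundant ones. Of the 8 members, 2 had groups that did not overlap in wild type and 3 in knockout, miR-362-5p, the member behind the choice, among the 3. The log2 fold change was 1.26 (SE 0.17, n = 5 per group, limma adjusted p = 2.03e-05), or 2.39-fold, in wild type and 1.41 (SE 0.15, limma adjusted p = 1.93e-06), or 2.66-fold, in knockout. It stayed positive with libraries centred on their median, at 0.70 (limma adjusted p = 0.0033) and 0.90 (limma adjusted p = 8.14e-05). The wild-type call was lost when libraries were centred on the median of all features (0.50, limma adjusted p = 0.0675).

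miR-501-3p, which shares the seed of miR-500-3p, did not follow it. Its level was 120.7 ± 17.4 CPM (SD, n = 5) in normoxic and 109.2 ± 8.38 CPM in deprived wild-type neurons, and 121.5 ± 9.12 and 114.1 ± 14.5 CPM in knockout. The groups overlapped in both genotypes. On the log2 scale the fold change was -0.14 (SE 0.13, limma adjusted p = 0.477) in wild type and -0.10 (SE 0.11, limma adjusted p = 0.566) in knockout. With libraries centred it became a called decrease, at -0.70 and -0.61.

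The ratio of miR-500-3p to miR-501-3p within a library does not depend on scaling. Its mean log2 value was -3.09 ± 0.31 in normoxic wild-type neurons and -1.66 ± 0.17 after OGD, and -3.05 ± 0.24 and -1.51 ± 0.39 in knockout (SD, n = 5). No OGD library overlapped a normoxic one: the highest normoxic value was -2.77 and the lowest OGD value -2.04. This ratio was chosen after its values were seen and is given without a test. The summed level of the pair, that is of the seed they share, was 134.9 ± 17.4 and 143.8 ± 11.5 CPM in wild type and 136.2 ± 8.6 and 154.1 ± 11.5 CPM in knockout. The part of it that was miR-500-3p went from a mean of 10.6% to 24% in wild type and from 10.8% to 26.2% in knockout.

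miR-362-3p, the more abundant arm of its hairpin, was the other member higher in both genotypes. In wild type its libraries were at 80.6, 89.2, 101.8, 84.5 and 49.9 CPM in normoxia and at 143, 122.9, 142.7, 143.9 and 132.5 CPM after OGD. In knockout they were at 80.4, 86.1, 101.4, 89.3 and 92.3 CPM and at 139.8, 136.6, 193.9, 127.4 and 158.8 CPM. The groups did not overlap in either genotype, and the lowest value of all, 49.9 CPM, was in wild-type normoxic replicate 5. The log2 fold change was 0.79 (SE 0.16, limma adjusted p = 0.0013) in wild type, 0.62 (limma adjusted p = 0.000347) without that library, and 0.74 (SE 0.12, limma adjusted p = 0.000157) in knockout. Neither call held with libraries centred on their median, where the values were 0.23 (limma adjusted p = 0.334) and 0.23 (limma adjusted p = 0.172).

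The seed of miR-362-3p is shared by miR-329-3p, a miRNA from another locus. miR-329-3p had means of 156.8 and 146.6 CPM in normoxic and deprived wild-type neurons and 161.6 and 158.6 CPM in knockout. The summed level of that seed was 238 ± 30.4 CPM before and 283.6 ± 21.2 CPM after OGD in wild type, and 251.5 ± 6.13 and 309.9 ± 25.3 CPM in knockout. miR-362-3p made up 33.8% and 48.4% of it in wild type and 35.7% and 48.6% in knockout.

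miR-362-5p, the member that led to the choice, was at 43.8, 34.4, 42.7, 29.3 and 20 CPM in normoxic wild-type libraries and at 63.2, 42.2, 40.8, 54.2 and 43.7 CPM after OGD. These groups overlapped, with 2 of 5 OGD libraries above all normoxic ones. In knockout it was at 27.4, 43.8, 41.9, 35.9 and 30.4 CPM in normoxia and at 70.9, 72.6, 83, 58.7 and 68 CPM after OGD, with no overlap. The log2 fold change with OGD was 0.55 (SE 0.20, limma adjusted p = 0.0623) in wild type and 0.37 (limma adjusted p = 0.121) without wild-type normoxic replicate 5. The wild-type value lay near the threshold and passed in 4 of the 10 other fits on reads, with low features filtered (limma adjusted p = 0.0495), with voom (0.0414), with total reads as library size (0.0377) and with a replicate block (0.0176). The wild-type OGD libraries are 1 side of the contrast that chose the group, so these p-values are no independent support. In knockout the log2 fold change was 0.98 (SE 0.14), given without a p, since its 5 OGD libraries are the other side of that contrast. With libraries centred the wild-type value was -0.01 and the knockout value 0.47. The knockout call counted above was lost when libraries were centred on the median of all features (0.46).

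The arms of Mir362 were compared within libraries, since 5p and 3p come from 1 hairpin. The mean log2 ratio of 5p to 3p was -1.27 ± 0.24 in normoxic and -1.50 ± 0.23 in deprived wild-type neurons, and -1.34 ± 0.25 and -1.09 ± 0.14 in knockout. The change with OGD was -0.23 in wild type (exact permutation test, adjusted p = 0.286 over 9 tests) and 0.25 in knockout. The knockout change is given without a p, since it rests on the OGD libraries whose high miR-362-5p values chose the group. The wild-type OGD libraries are the other side of the contrast that chose it, so the wild-type p is no independent support. The 3p arm was the more abundant in every library. Arm ratios also carry the ligation preferences of the library kit, so the ratio is compared between groups and not read as the true arm use.

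miR-532-5p was the most abundant member, and its level did not pass the test in either genotype. It was at 1706 ± 124.1 CPM in normoxic and 1577 ± 54.5 CPM in deprived wild-type neurons, and at 1701 ± 91.7 and 1680 ± 130.5 CPM in knockout (SD, n = 5). Its log2 fold change was -0.11 (95% interval -0.29 to 0.07) in wild type and -0.02 (-0.18 to 0.14) in knockout. Centred values were -0.67 and -0.53, and both passed the test (limma adjusted p = 3.84e-05 and 0.000158). Quantile normalization gave -0.24 (limma adjusted p = 0.0246) in wild type and -0.14 (limma adjusted p = 0.117) in knockout. On the deposited values it was called lower in wild type (limma adjusted p = 0.0406).

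Its partner arm miR-532-3p was at 69.5, 57.4, 53, 46.9 and 39.7 CPM in normoxic wild type and at 72.2, 67.1, 57.8, 68.2 and 77.3 CPM after OGD. In knockout it was at 49.1, 46.8, 61.7, 56 and 55.6 CPM and then at 59.2, 74.3, 72.2, 76.4 and 61.3 CPM. The groups overlapped in both genotypes. Its change on the log2 scale was 0.38 (SE 0.16, limma adjusted p = 0.0946) in wild type and 0.35 (SE 0.12, limma adjusted p = 0.0409) in knockout. The knockout call held in 3 of 10 fits that left out 1 library each, those without normoxic replicate 3, OGD replicate 1 or OGD replicate 5. It was lost with total reads as library size (limma adjusted p = 0.0657). The wild-type value was 0.28 without normoxic replicate 5 (limma adjusted p = 0.167), and it passed without normoxic replicate 1 (0.48, limma adjusted p = 0.0345) and on the deposited values (limma adjusted p = 0.00548). Centred values were negative and not called, at -0.18 and -0.16.

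The log2 ratio of miR-532-5p to miR-532-3p was 5.02 ± 0.24 in normoxic and 4.53 ± 0.18 in deprived wild-type neurons, and 4.99 ± 0.19 and 4.61 ± 0.23 in knockout. The exact permutation test gave p = 0.0159 and 0.0317, and an adjusted p = 0.143 for both, so neither difference passed over the 9 tests. The 9 tests covered miR-362, miR-501 and miR-532. No test of miR-501 or miR-532 passed, and nothing is read from the knockout OGD test of miR-362.

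miR-188-5p was at 30.3 ± 4.49 and 38.9 ± 6.44 CPM in normoxic and deprived wild-type neurons, and at 31.3 ± 2.06 and 39.6 ± 7.22 CPM in knockout. On the log2 scale it changed by 0.35 (SE 0.16, limma adjusted p = 0.139) in wild type and 0.32 (SE 0.14, limma adjusted p = 0.105) in knockout. The groups overlapped in both. The knockout value passed without OGD replicate 1 (0.42, limma adjusted p = 0.0176), and both passed on the deposited values (limma adjusted p = 0.0332 in wild type and 0.0085 in knockout). Centred values were -0.21 and -0.19. miR-501-5p rested on 5 to 43 reads a library and was at 3.63 ± 1.04, 3.86 ± 1.42, 3.45 ± 0.47 and 4.61 ± 1.73 CPM in normoxic and deprived wild-type and in normoxic and deprived knockout neurons. A change of miR-501-5p was not detectable at this depth, with 95% intervals of -0.58 to 0.69 in wild type and -0.23 to 0.85 in knockout.

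**Figure D3:**
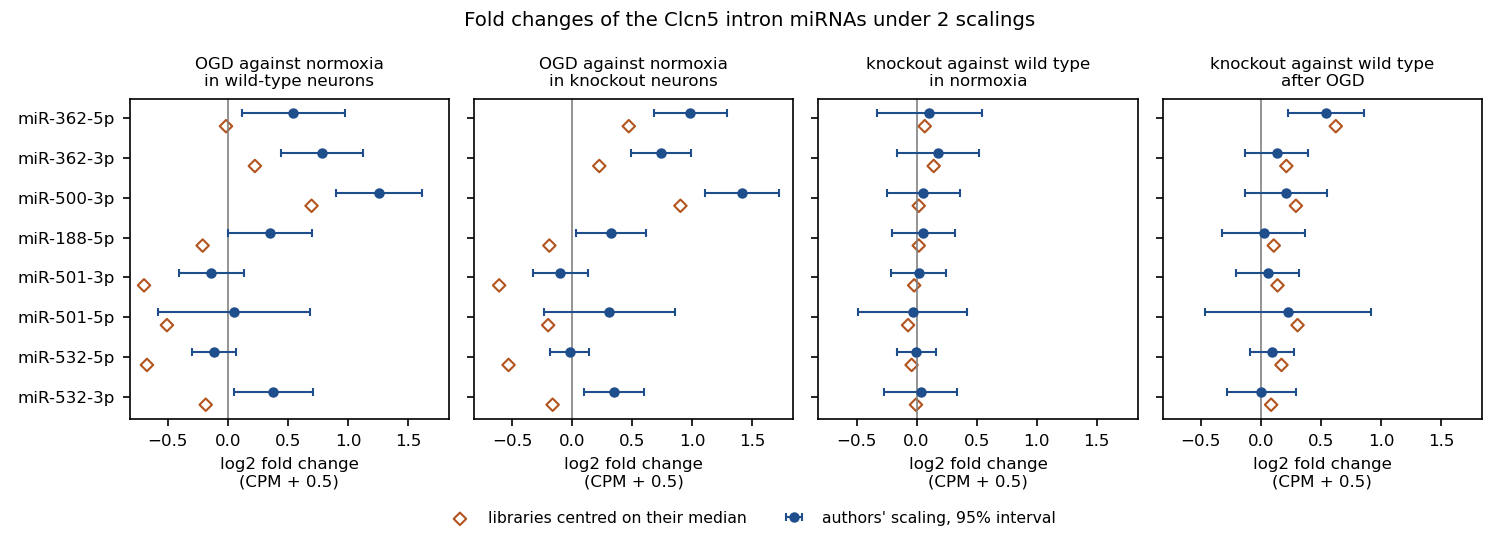
Log2 fold changes of log2(CPM + 0.5) for the 8 members in 4 comparisons of 5 against 5 libraries, with the authors' library factors (filled circles, 95% intervals) and with libraries centred on their median (open diamonds). With OGD every member moves left by 0.56 (wild type) or 0.51 (knockout) under centring, which leaves miR-500-3p and miR-362-3p right of 0 in both genotypes, and miR-362-5p in knockout. Between genotypes in normoxia the values with the authors' factors run from -0.03 to 0.18. After OGD those of the 7 mates run from 0.0022 to 0.22 and, centred, from 0.08 to 0.30. miR-362-5p, the value that chose the group, is at 0.54 and 0.62 there, and the intervals of that contrast are no test.

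The make-up of the cluster was compared as the percent of the summed reads of the 8 members in each library, which no scaling can change. miR-532-5p fell from 83.5% ± 1.58 to 78.2% ± 0.77 (SD, n = 5) with OGD in wild type and from 82.9% ± 0.83 to 77.4% ± 1.7 in knockout. miR-362-3p rose from 3.99% ± 0.98 to 6.79% ± 0.20 and from 4.39% ± 0.38 to 6.97% ± 1.09. miR-500-3p rose from 0.69% ± 0.10 to 1.71% ± 0.18 and from 0.72% ± 0.10 to 1.86% ± 0.31. For these 3 miRNAs the OGD and normoxic libraries did not overlap in either genotype, and each difference had p = 0.0079 (exact permutation test, two-sided), the smallest that 5 against 5 libraries can give. Adjusted over the 24 tests of 8 members and 3 comparisons it was 0.0272. The calls of these 3 held in all 10 sets that left out 1 library, in both genotypes.

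Among the other shares, those of the 2 remaining called members depended on single libraries in wild type. miR-362-5p was at 1.66% and 2.41% in wild type, with overlap (exact permutation test, adjusted p = 0.0423), and at 1.75% and 3.25% in knockout, without overlap. The knockout share of miR-362-5p is given without a p, since it rests on the OGD libraries whose high values chose the group. The wild-type OGD libraries are the other side of the contrast that chose it, so the wild-type p is no independent support. miR-532-3p was at 2.59% and 3.40% in wild type (exact permutation test, adjusted p = 0.0423) and at 2.63% and 3.19% in knockout (exact permutation test, adjusted p = 0.117). The wild-type call of miR-362-5p held in 2 of 10 sets that left out a library, those without replicate 3 of either condition, and that of miR-532-3p held in 2, those without normoxic replicate 1 or OGD replicate 3. Both wild-type calls were lost with libraries thinned to equal depth, at 0.887 percentage points for miR-362-5p (exact permutation test, adjusted p = 0.0714) and 0.675 for miR-532-3p (exact permutation test, adjusted p = 0.0847). Shares of miR-188-5p, miR-501-3p and miR-501-5p did not pass in either genotype. The 8 shares sum to 100% in a library, so they are not independent of each other. In all, 9 of 24 tests passed, 5 in wild type, 4 in knockout and 0 between genotypes in normoxia. Those of both genotypes include miR-362-5p, whose OGD tests are no independent support.

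**Figure D4:**
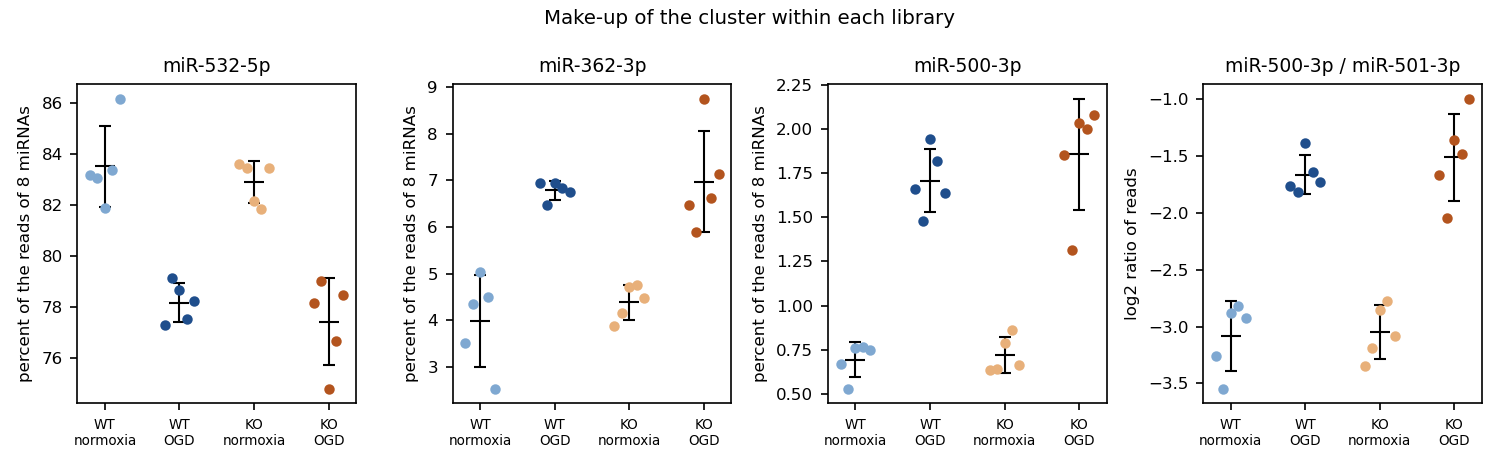
Share of miR-532-5p, miR-362-3p and miR-500-3p in the summed reads of the 8 members (percent, axes do not start at 0) and the log2 ratio of miR-500-3p to miR-501-3p, by library (points) with mean and SD (black bars), n = 5 per group. In every panel the OGD and normoxic libraries are separate in both genotypes, with miR-532-5p lower and the other 3 quantities higher after OGD.

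The summed level of the cluster, given without a test, was 2043 ± 152.7 CPM in normoxic and 2018 ± 82.9 CPM in deprived wild-type neurons, and 2051 ± 101.5 and 2169 ± 146 CPM in knockout, about 0.20% to 0.22% of all reads. Without miR-532-5p the sum was 337.3 ± 44.6 and 440.8 ± 31.2 CPM in wild type and 350.6 ± 19 and 489 ± 41.2 CPM in knockout. The lowest OGD sum without miR-532-5p was 396.9 CPM and the highest normoxic one 385.8 CPM, both with the authors' scaling. Median centring lowers every OGD change by 0.56 in wild type and 0.51 in knockout on the log2 scale. The sums were not taken under it, so this separation holds for the authors' scaling only.

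Between genotypes in normoxia, the 8 members had log2 fold changes from -0.03 (miR-501-5p) to 0.18 (miR-362-3p), and all groups overlapped. The value of miR-362-3p was 0.0156 without wild-type normoxic replicate 5. The count called was 0 of 8, where 0% of 1481 features were called and 3.17% had an unadjusted p under 0.05. limma's voom fit called 0 features as well, and the fit on the deposited values called 33 features and 0 members. For miR-362-5p the value was 0.11 (95% interval -0.33 to 0.54), and -0.07 without wild-type normoxic replicate 5. The narrowest interval was that of miR-532-5p, -0.17 to 0.16, and the widest that of miR-501-5p, -0.49 to 0.42.

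After OGD, knockout neurons had more miR-362-5p than wild type, 70.6 ± 8.75 against 48.8 ± 9.62 CPM (SD, n = 5). This is the value that chose the group. The difference was 0.54 on the log2 scale (SE 0.15), and 4 of 5 knockout libraries were above all wild-type ones. The fifth, at 58.7 CPM, lay below wild-type replicate 1 at 63.2 CPM, so the groups overlapped. Leaving out 1 library at a time gave 0.48 to 0.64.

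The cluster mates had smaller differences in the same contrast. The values were 0.22 for miR-501-5p, 0.21 for miR-500-3p, 0.13 for miR-362-3p, 0.09 for miR-532-5p, 0.06 for miR-501-3p, 0.02 for miR-188-5p and 0.0022 for miR-532-3p. All 7 groups overlapped. Standard errors ran from 0.09 for miR-532-5p to 0.34 for miR-501-5p, and that of miR-362-3p, the other arm of the same hairpin, was 0.13. The median of the 7 mates was 0.09, beside -0.01 over 451 abundant features. These values depend on the scaling: with libraries centred on their median the mates ran from 0.08 to 0.30, with a median of 0.17 beside 0.07 over abundant features, and miR-362-5p was at 0.62. With libraries centred on the median of all features the mates ran from 0.26 (miR-532-3p) to 0.48 (miR-501-5p), and miR-362-5p was at 0.80. As background only, 0% of 1481 features were called in this contrast and 7.29% had an unadjusted p under 0.05, and nothing is read from this for the members. Groups did not overlap for 0.945% of features (0.887% of abundant ones).

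The OGD effect on miR-362-5p was larger in knockout than in wild type by 0.43 on the log2 scale (SE 0.26). This term uses the OGD libraries that chose the group and is given without a p. For the 7 mates it ran from -0.05 (miR-362-3p) to 0.26 (miR-501-5p) with the authors' scaling. It was positive for 4 of them, beside 171 of 423 abundant features. Under median centring (0.02 to 0.32) and quantile normalization (0.0023 to 0.37) it was positive for all 7, beside 263 and 242 of the 423. Under centring over all features it was positive for all 7 too (0.20 to 0.51), and the share of other features was not counted there. As background, 0% of 1481 features were called for this term and 5% had an unadjusted p under 0.05.

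The likeness of other miRNAs to miR-362-5p was measured as the root mean square difference of log2 values, each centred on its own mean, over the 20 libraries and 422 abundant features. The nearest were miR-93-5p (0.19), miR-30b-5p (0.23), miR-17-5p (0.23), miR-374b-5p (0.24) and miR-342-3p (0.24). Of the cluster, miR-362-3p came in place 8 (0.25), miR-532-3p in place 55, miR-500-3p in place 123, miR-188-5p in place 139, miR-532-5p in place 205 (0.52) and miR-501-3p in place 229 (0.54). The median over features was 0.52, and a feature with no variation at all would score 0.51, so miR-532-5p and miR-501-3p were no nearer than that. miR-501-5p was below the level needed. The features share these 20 libraries and their OGD contrast, and the measure is a description.

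Other X-linked miRNAs were counted beside the cluster, from a list of 33 outside Clcn5. With OGD in wild type 8 rose and 3 fell, with a median log2 fold change of 0.13, and in knockout 10 rose and 4 fell, with a median of 0.25, where 18.7% and 18.8% of all features were called higher and 4.4% and 5.75% lower. With libraries centred on their median the counts became 1 higher and 14 lower in wild type and 0 higher and 12 lower in knockout, where 7.31% and 7.57% of all features were called higher and 17.9% and 21.9% lower. Between genotypes 0 of 33 were called in normoxia. Of the other mature forms of the Clcn5 precursors, 2 of 5 listed were measured, miR-188-3p and miR-500-5p, and 0 of these were called in any comparison.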

How the data were processed

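Members and lists were chosen with earlier results of these data known. The authors deposited 6 tables, one per pair of groups, whose values are a score rather than log CPM: they exceed the largest possible log2 CPM of 19.9. From the values, each score was reads times a library factor, raised to a power (0.106 to 0.118 by table), with the extremes of each group of 5 limited at quantiles 0.16 and 0.84. Undoing this gave whole reads for 100% of values (tolerance 0.05), equal across tables. The genome build was mm10 per the submitters' processing notes; the aligner and miRBase release are not given in the sources used here. CPM used the authors' library factors. limma 3.58.1 (R 4.3.3; lmFit, eBayes with trend) was run on log2(CPM + 0.5), which understates changes of rare features, with no block or covariate. Arm ratios, with 0.5 reads added, and shares were tested by exact two-sided permutation (scipy 1.17.1). The planned design named this scale for recovered reads. All members are named; likeness names the 5 nearest features. A floor of 3 reads and all intervals cover counting or library spread only, as reads carry no molecular identifiers in the labels. Same-numbered libraries did not deviate together in every pair, so numbers were not used to pair them. Alternatives were other pseudocounts, a low-level filter, centring, quantile normalization, voom, the deposited values, thinning to 1160582 reads, a replicate block and leaving out each library. Scripts were tested on simulated data.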

Additional observations from a re-analysis of the deposited data

Results flagged for a closer look

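Of 44 groups of 5 libraries checked for a value far from the rest, 2 held one, and chance alone marks about 1 in 20 groups. miR-500-3p in wild-type normoxic replicate 2 was at 10.87 CPM, a gap of 0.778 of its group's range. miR-532-5p in knockout normoxic replicate 4 was at 1540 CPM, a gap of 0.791 of its group's range. The OGD calls of miR-500-3p and the absence of a call for miR-532-5p were as before without those libraries.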

How the results depend on the processing

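For OGD in wild type, sign changed under median centring, median centring over all features (chosen after seeing the data) and quantile normalization for miR-362-5p (-0.0145, -0.21, -0.0352), miR-188-5p (-0.21, -0.40, -0.29), miR-501-5p (-0.51, -0.70, -0.61) and miR-532-3p (-0.18, -0.38, -0.20). In knockout it changed for miR-188-5p (-0.19, -0.20, -0.23), miR-501-5p (-0.20, -0.21, -0.25) and miR-532-3p (-0.16, -0.17, -0.12). None of these values was called. Thinning to the shallowest depth turned miR-501-5p to -0.42 and -0.0422 with OGD, its shares to -0.056 and -0.025 percentage points, and the miR-501 arm ratio to -0.31 in wild type. Calls of miR-500-3p and miR-362-3p held at equal depth in both genotypes (1.17 and 1.66, 0.79 and 0.72).

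Between genotypes in normoxia, values near 0 changed sign. miR-501-3p went to -0.0206 (median centring) and -0.0372 (quantile). miR-532-3p went to -0.0054 (median centring), -0.0421 (quantile), -0.00304 (voom) and -0.0586 (thinned). miR-532-5p went to 0.00084 (all-feature centring), 0.0382 (deposited values), 0.02 (thinned) and 0.0232 (total reads as library size, chosen after seeing the data), and miR-500-3p to -0.0014 (deposited values) and -0.39 (thinned). Thinned arm ratios went to 0.16 for miR-362 and 0.0789 for miR-532. The cause was not tested.

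Leaving out 1 library gave ranges across 0 between genotypes in normoxia for miR-188-5p (-0.0156 to 0.11), miR-362-5p (-0.0683 to 0.21), miR-500-3p (-0.032 to 0.0907), miR-501-3p (-0.0404 to 0.0916), miR-501-5p (-0.15 to 0.0799), miR-532-3p (-0.066 to 0.135), miR-532-5p (-0.0331 to 0.0371), and the arm ratios of miR-362 (-0.17 to 0.0216), miR-501 (-0.23 to 0.0246) and miR-532 (-0.0972 to 0.0631). The same held with OGD for miR-501-5p in wild type (-0.10 to 0.24, share -0.011 to 0.035) and miR-532-5p in knockout (-0.0548 to 0.0259). It left 2 to 3 members called with OGD in wild type, 3 to 5 in knockout, and 7 to 11 of the 24 share tests. The number of all features called changed as well: without wild-type normoxic replicate 1 it was 281, beside 341 with all libraries. So nothing is read from these member counts alone.

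On the deposited values, in which group extremes were limited, 6 members were called with OGD in wild type, 5 higher and 1 lower (miR-532-5p), where 477 of 1478 features were (341 on recovered reads). The count between genotypes after OGD was 1, among 72 features, in the contrast that chose the group, so it supports nothing. Replicate numbers did not meet the rule for pairing, a correlation over 0.1 in every pair: with OGD it held for 4 of 5 pairs in each genotype, and 4 of 5 wild-type and 3 of 5 knockout libraries correlated best with their own number. With a replicate block 3 members were called with OGD in wild type (389 features), 4 in knockout (403 features), and 0 between genotypes or in the interaction, and 0 shares and 0 arm ratios passed, since 5 pairs cannot give an exact p below 0.0625. The miR-532 arm ratio was lower after OGD in all 5 same-numbered pairs of each genotype, at that smallest p. Depth limits miR-501-5p, miR-188-3p and miR-500-5p.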
